A study of Mus musculus with 7 samples.

Results

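OG2.1 and OG2.2 are 2 mouse epiblast stem cell (EpiSC) lines that share a name series, and their gene expression was set against that of the 4 other EpiSC lines of the study, E3, E5, T9 and C1a1. The 2 lines were chosen by their names, not by any measured value, and they are 2 of 7 cell samples in all. The seventh sample, the mouse embryonic stem cell (ESC) line R1, belongs to the same study and entered no test. Each line was measured once on an Illumina bead array from total RNA, so the lines are the replicates, and p-values measure the spread between lines with culture and array differences included. Strain, sex, derivation, passage, culture medium and the meaning of the name OG2 were not given in the sources used here, and no treatment was named for any line. Genes were tested where the array's detection p was under 0.01 on at least 1 of the 6 EpiSC arrays, and a value with such a detection p is called above background here. That left 8871 genes, each read from its brightest probe.

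EpiSCs are derived from the epiblast of the embryo after implantation, whereas ESCs come from the blastocyst before it. EpiSCs are kept by activin and FGF signals, hold Oct4 (Pou5f1) and Sox2 and can be primed toward different fates, because the epiblast is patterned along the embryo's axis as gastrulation begins. Wnt, FGF and retinoic acid signals pattern its posterior end, where caudal (Cdx) and Hox genes come on, and Meis proteins are partners of Hox proteins on DNA.

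Both OG2 arrays looked like the other EpiSC arrays in depth of signal. Probes above background numbered 10907 and 11039 of 25697 on the OG2.1 and OG2.2 arrays, against 10642 to 11574 on the 4 others. All 8 EpiSC markers, among them Pou5f1, Fgf5 and Dnmt3b, were above background in every EpiSC line, with a mean level of 11.25 to 11.38 (log2) in the OG2 lines and 11.27 to 11.68 in the others. Of 7 naive ESC markers, 4 reached detection in an EpiSC line and were tested. Of these 4, 1 was above background in each OG2 line and 1 to 3 in the others, against 4 in R1. Of 7 fibroblast and feeder markers, 3 were tested, of which 2 in OG2.1, 3 in OG2.2 and 1 to 2 in the others were above background, and Lum, Col1a2, Col3a1 and Postn were below it in every EpiSC line. No neural marker of the 3 on the array (Sox1, Pax6 and Tubb3) was above background in any EpiSC line. Of 5 primitive red cell markers, the globins Hbb-y, Hbb-bh1 and Hba-x were above background in OG2.1 and in no other line. The X-inactivation transcript Xist, at 8.83 and 9.36 in the OG2 lines, was above background in T9 and C1a1 as well, so it did not divide the groups. The Y-linked genes Eif2s3y (9.96 in E3 and 10.54 in R1) and Kdm5d (7.00 and 6.17) were above background in E3 and R1 only. The other EpiSC lines thus differed among themselves in these genes. In whole cultures, fewer cells of a type and less RNA per cell cannot be told apart.

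The OG2 lines differed from the 4 other EpiSC lines in 7 genes by limma's moderated test with Benjamini-Hochberg adjustment (adjusted p under 0.05), 0.0789% of the 8871 tested. Npy and Meis2 were higher (2 genes, 0.0225%), and Thumpd1, Casp9, Erdr1, Abhd16a and Tmem87a were lower (5 genes, 0.0564%). At an unadjusted p under 0.05, 840 genes (9.47%) passed. The probes with no gene symbol, 731 of those kept, gave 0 calls by limma. Values are normalized log2 signals throughout, and differences are OG2 mean minus the mean of the 4 other lines.

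Npy, which encodes the secreted neuropeptide Y, was the gene that rose most. It was at 10.05 in OG2.1 and 11.25 in OG2.2, against 5.16 in E3, 4.54 in E5, 4.89 in T9 and 6.28 in C1a1. Only C1a1 among the 4 others was above background, and R1 (4.56) was not. The difference was 5.43 (SE 0.53, adjusted p = 0.0226). Meis2, a homeodomain factor that binds DNA beside Hox and Pbx proteins, was at 10.29 and 9.83 in the OG2 lines, against 6.86, 6.69, 6.05 and 7.09 in E3, E5, T9 and C1a1. It was above background in all 6 EpiSC lines, and R1, at 10.41, lay with the OG2 lines. Meis2 rose by 3.39 (SE 0.32, adjusted p = 0.0226), or 10.5-fold. The promoter windows of the 2 genes that rose are shown because they are the only shared gains that passed the test. Each holds the 250 bases before the start listed by RefSeq (GRCm38.p6), 5′ to 3′ on the gene's strand, with CG dinucleotides in capitals; Npy lies at chr6:49822460-49822709, plus strand, and Meis2 at chr2:116064620-116064869, minus strand.
Npy: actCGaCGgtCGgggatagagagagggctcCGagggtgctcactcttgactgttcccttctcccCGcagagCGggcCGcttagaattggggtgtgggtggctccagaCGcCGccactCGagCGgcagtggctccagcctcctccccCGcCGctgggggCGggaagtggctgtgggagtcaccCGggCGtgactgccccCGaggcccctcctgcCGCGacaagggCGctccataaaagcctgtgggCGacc
Meis2: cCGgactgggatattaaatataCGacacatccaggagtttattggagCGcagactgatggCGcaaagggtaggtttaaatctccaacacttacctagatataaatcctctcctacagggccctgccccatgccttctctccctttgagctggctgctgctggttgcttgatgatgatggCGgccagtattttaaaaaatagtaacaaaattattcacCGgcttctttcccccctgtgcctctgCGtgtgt
Npy has 21 CG dinucleotides there, more than 83.9% of 27025 mouse promoter windows of that length, and Meis2 has 7, more than 53.5%. The listed Meis2 start is not the outermost start of the gene. Motifs of Cdx factors (TTTATG), Meis factors (TGACAG) and the retinoid receptor half-site (AGGTCA) were searched on both strands. The Npy window held 1 Cdx motif, which 11.1% of all windows hold, and no match of the others. The Meis2 window held none of the 3.

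The 5 genes that fell had one pattern in common: none was above background in either OG2 line, and each was above it in all 4 other EpiSC lines and in R1. Fold changes are therefore lower bounds, set against the higher of the dim probe's own signal and the lowest signal of any probe above background on each OG2 array. Thumpd1, whose protein helps acetylate cytidine in transfer RNA, was at 4.49 in OG2.1 and 4.60 in OG2.2, against 11, 11.57, 10.79 and 10.70 in E3, E5, T9 and C1a1. Its signal was at least 43.3-fold lower in the OG2 lines (difference -6.47, SE 0.28, adjusted p = 0.0003). Casp9, the initiator caspase of the mitochondrial apoptosis pathway, was at 4.76 and 5.01 in the OG2 lines, against 9.12, 9.08, 9.04 and 9.32. It was at least 11.8-fold lower by this probe (difference -4.26, SE 0.20, adjusted p = 0.0003). The groups lay 6.10 apart for Thumpd1 and 4.03 apart for Casp9, with 0.11 and 0.26 between the OG2 lines themselves.

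Erdr1, an erythroid differentiation regulator, was at 4.67 and 4.48 in OG2.1 and OG2.2, against 8.42, 10.25, 10.51 and 9.51 in E3, E5, T9 and C1a1 (at least 17.1-fold lower, difference -5.10, SE 0.55, adjusted p = 0.0383). Abhd16a, a phosphatidylserine lipase, was at 4.94 and 4.84 in the OG2 lines, against 8.0, 7.54, 7.74 and 8.49 (at least 5.14-fold lower, difference -3.05, SE 0.29, adjusted p = 0.0226). Tmem87a, a membrane protein of the Golgi, was at 4.65 and 4.94, against 7.44, 7.52, 8.5 and 8.23 (at least 5.08-fold lower, difference -3.13, SE 0.35, adjusted p = 0.0390). Each of these 3 genes had a gap of over 2 log2 units between the groups, and the array carried 1 probe for each. Promoter windows of the 2 genes with the lowest adjusted p are shown, drawn from the same table and build, because they are at opposite ends in CG content; Thumpd1 lies at chr7:119723620-119723869, minus strand, and Casp9 at chr4:141793362-141793611, plus strand.
Thumpd1: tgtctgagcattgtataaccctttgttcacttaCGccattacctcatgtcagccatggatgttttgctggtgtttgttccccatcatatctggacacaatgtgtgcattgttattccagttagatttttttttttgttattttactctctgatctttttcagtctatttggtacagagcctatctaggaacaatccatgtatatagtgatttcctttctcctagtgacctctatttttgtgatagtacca
Casp9: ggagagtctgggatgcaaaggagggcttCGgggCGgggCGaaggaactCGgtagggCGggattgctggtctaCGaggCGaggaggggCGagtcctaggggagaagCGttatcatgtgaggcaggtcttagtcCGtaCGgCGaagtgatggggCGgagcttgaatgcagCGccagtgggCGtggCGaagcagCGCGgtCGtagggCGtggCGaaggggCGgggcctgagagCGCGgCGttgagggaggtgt
The Thumpd1 window has 1 CG dinucleotide, more than 8.26% of all windows, and the Casp9 window has 25, more than 89.7%. Abhd16a has 20 and Tmem87a 13, and Erdr1 had no listed window. The windows of genes that fell thus ranged widely in CG content, each read from 1 listed start of its gene. The retinoid half-site was found once in the Thumpd1 window, as in 13.8% of all windows, and no motif was found in those of Casp9, Abhd16a and Tmem87a.

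**Figure D1:**
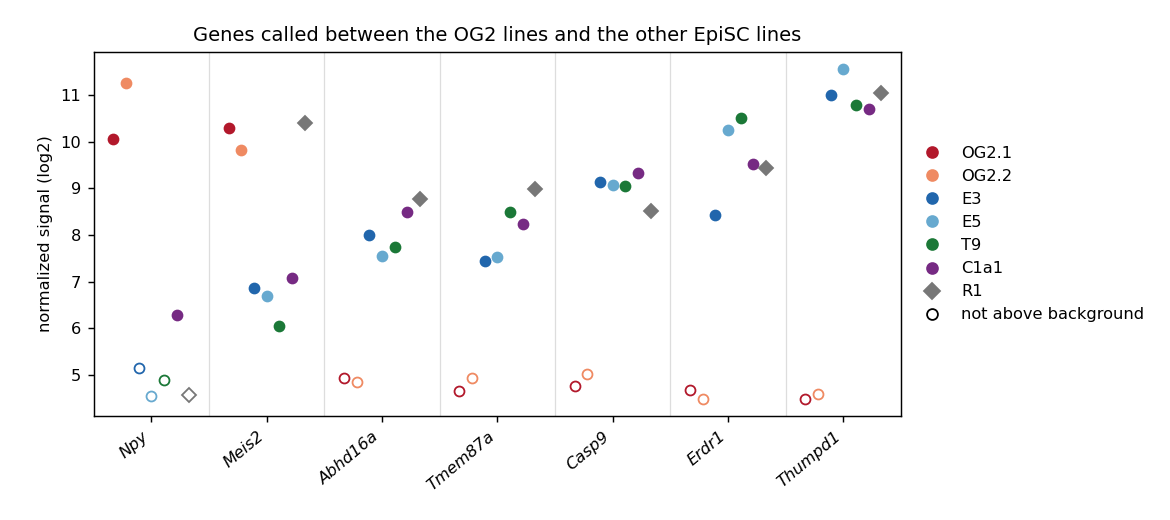
Normalized log2 signal of the 7 genes that passed the test, by cell line; filled points are above the array's background, open points are not, and the diamond is the embryonic stem cell line R1. In the 5 genes that fell, both OG2 lines are open points near 5 and the other 5 lines lie at 7.44 or higher.

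Other probes of Casp9 went the other way. Of 3 kept Casp9 probes, the brightest gave the call above. A second probe was at 5.67 and 6.31 in OG2.1 and OG2.2 and above background in both, against 4.47, 4.79, 4.75 and 4.90 in E3, E5, T9 and C1a1, none of them above it (difference 1.26, SE 0.25, adjusted p over all probes 0.174). The last was at 5.18 and 5.80, against 4.57, 4.54, 4.64 and 4.82 (difference 0.84, SE 0.24). With the mean of its probes in place of the brightest, Casp9 was no longer called (difference -0.72, adjusted p = 0.371). The low Casp9 signal of the OG2 lines is therefore a result of 1 probe, and the platform annotation gives all 3 probes the same transcript record.

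Only 2 of 2339 genes with several kept probes had probes whose groups were at least 0.25 apart in both directions: Casp9 and Pdxdc1. Pdxdc1 is named after its values were seen. Its brightest probe was at 6.79 and 7.10 in the OG2 lines, against 8.29, 8.10, 8.15 and 8.53 in E3, E5, T9 and C1a1 (difference -1.32). A second probe was at 7.65 and 7.57 in the OG2 lines, against 5.91, 5.76, 5.68 and 5.86 (difference 1.81, adjusted p over all probes 0.0258). The other probe differed by 1.33. All 3 probes separated the groups, in opposite directions, so the gene has no single direction here.

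With each kept probe tested on its own, 14 probes were called. The added genes were Cdx2, Alox5, Pdxdc1, Rpl29, Mak16, Me1 and Nhlrc2, of which all but Cdx2 were chosen after their values were seen. One probe of Rpl29, a protein of the large ribosomal subunit, was at 10.94 and 11.32 in OG2.1 and OG2.2, against 7.48, 7.72, 7.58 and 7.69 in E3, E5, T9 and C1a1 (difference 3.51, SE 0.21, adjusted p = 0.00115). The brighter Rpl29 probe was at 12.27 and 12.50, against 11.90, 11.63, 11.89 and 11.74 (difference 0.60, adjusted p = 0.438). One probe of Mak16, a ribosome assembly factor, was at 10.51 and 10.25, against 6.45, 6.74, 5.56 and 5.64 (difference 4.29, SE 0.37, adjusted p = 0.0135), while its brighter probe differed by -0.22. Both probes thus split the groups by over 3 units where the brighter probe of the same gene had a difference under 1. Dim probes of Me1 (difference 1.71) and Nhlrc2 (difference -1.79) passed too, where the brighter ones differed by -0.90 and -1.43.

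**Figure D2:**
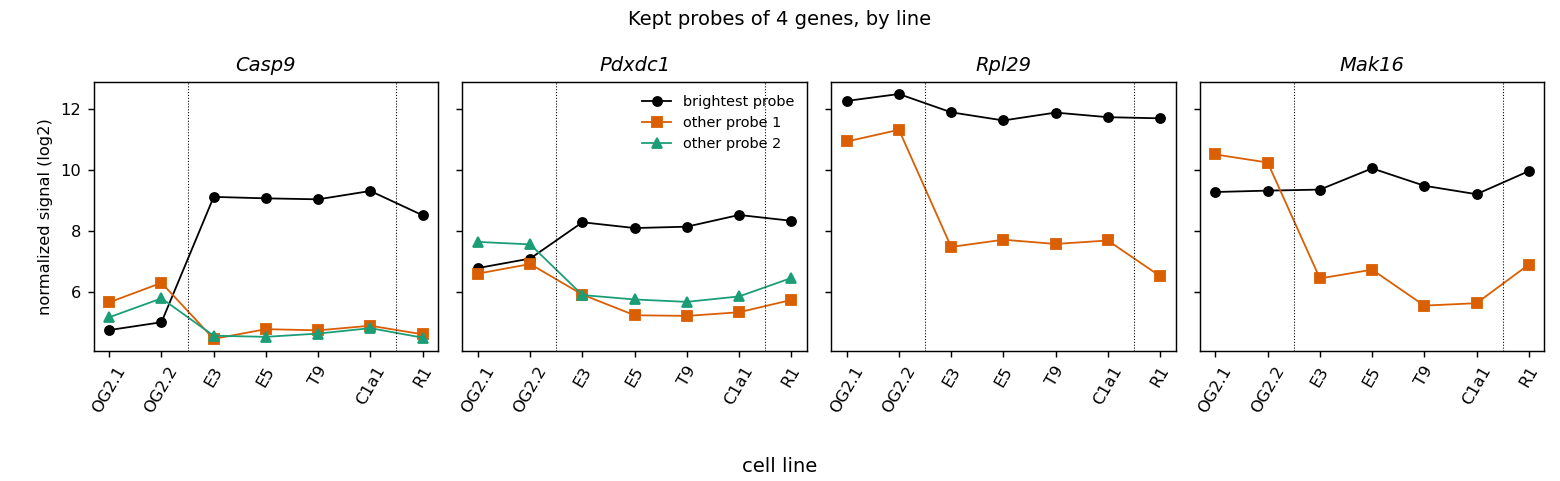
Normalized log2 signal of each kept probe of Casp9, Pdxdc1, Rpl29 and Mak16, by cell line; the brightest probe of the gene is black, the others are coloured, and dotted lines set off the OG2 lines at the left and R1 at the right. The brightest Casp9 probe is low in both OG2 lines (4.76 and 5.01) while its other probes are higher there than in the 4 other EpiSC lines.

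A wider set was defined by separation alone. The groups did not overlap in 1736 genes (19.6%), with the OG2 lines above in 828 (9.33%) and below in 908 (10.2%). In 51 genes (0.575%) they lay at least 1 log2 unit apart, with the OG2 lines above in 32 (0.361%) and below in 19 (0.214%). All 7 called genes are among the 51, and the others did not pass the test. Over all 8871 genes the median difference was -0.022, and 47.3% of differences were positive, so neither direction prevailed.

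Cdx2, a caudal homeobox gene of the posterior epiblast and the trophectoderm, was the nearest to the threshold among the genes of this set that the naming rule gave. It was at 8.13 and 9.63 in OG2.1 and OG2.2, against 4.99, 5.13, 4.44 and 5.54 in E3, E5, T9 and C1a1, and C1a1 alone of the 4 was above background (difference 3.85, SE 0.46, adjusted p = 0.0511). Alox5, the 5-lipoxygenase of leukotriene synthesis, chosen after its values were seen, had the same adjusted p with a smaller difference (1.68). Wnt5a, a ligand of non-canonical Wnt signalling, was at 7.26 and 7.58 in the OG2 lines, against 5.05, 5.10, 5.49 and 5.74 (difference 2.07, SE 0.26, adjusted p = 0.0714). For all 3 genes the lowest OG2 value lay over 1 unit above the highest of the others.

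Ednrb and Slpi, also at least 1 unit higher in both OG2 lines, had wider spread in the other group than Cdx2 and Wnt5a. Ednrb, the endothelin B receptor, was at 8.90 and 7.96 in the OG2 lines, against 4.62, 4.64, 4.61 and 6.19 in E3, E5, T9 and C1a1 (difference 3.41, adjusted p = 0.112). Slpi, a secreted inhibitor of serine proteases, was at 7.92 and 7.70, against 5.78, 5.84, 4.37 and 4.47 (difference 2.70, adjusted p = 0.165). C1a1 was the nearest of the 4 others in 18 of the 32 genes, E3 and T9 in 5 each and E5 in 4. In the 32 genes both OG2 lines were above background throughout, and the median distance between them was 0.493. R1 was above background in 12 of the 32 and nearer to the OG2 lines in 7, Gbx2 and Meis2 among them.

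On the lower side, Atp10d, a phospholipid-transporting ATPase, was at 6.60 and 6.42 in OG2.1 and OG2.2, against 9.94, 8.17, 9.22 and 8.93 in E3, E5, T9 and C1a1 (difference -2.56, adjusted p = 0.161). Timmdc1, an assembly factor of respiratory complex I, was at 7.58 and 7.52, against 9.41, 9.09, 9.17 and 10.05 (difference -1.88, adjusted p = 0.127). Apoc1, an apolipoprotein, was not above background in OG2.1 (4.68) and was at 5.84 in OG2.2, against 7.95, 7.22, 7.87 and 8.14 (difference -2.53, adjusted p = 0.114). Paip1, which binds the poly(A)-binding protein, differed by -1.81 (adjusted p = 0.118), as did Anxa4, an annexin (adjusted p = 0.188). In these 5 genes the 2 OG2 lines lay below every other EpiSC line. Of the 19 genes on this side, 8 were above background in neither OG2 line, all 19 were above it in all 4 other lines, and 18 were above it in R1.

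**Figure D3:**
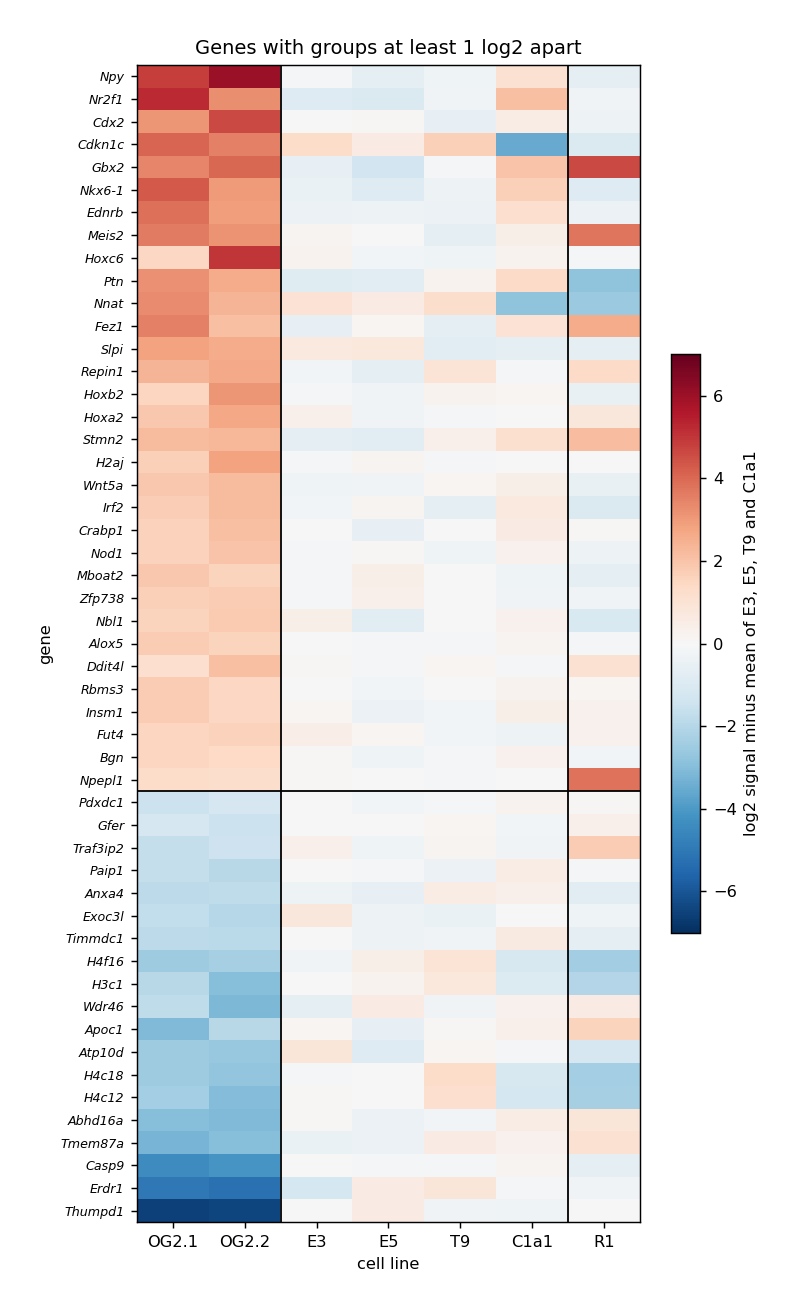
Log2 signal of the 51 genes whose groups lie at least 1 unit apart, as the distance from the mean of E3, E5, T9 and C1a1 (colour), by cell line, with the OG2 lines at the left and R1 at the right. The 32 genes higher in the OG2 lines are above the horizontal line, ordered by difference, and the 19 lower ones are below it.

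Detection gave a second view. In 31 genes (0.349%) both OG2 arrays were above background and none of the 4 others was, and 12 of these had a bound of at least 2-fold. None of the 31 passed limma's test, and they were kept for testing only through the OG2 lines, so that their differences had to be positive or near 0. Hoxc6 led with at least 5.36-fold, followed by Hoxb2 (3.44), Hoxa2 (3.39) and Hoxc9 (2.87). Next came Meox1, a homeobox gene of somites (2.62), and H2aj, a histone variant (2.46). Nod1, a receptor for bacterial peptidoglycan, had 2.32 and St8sia2, a polysialic acid synthase, 2.24. These bounds are on the mean of the 2 OG2 lines and need not hold for each line. OG2.2 was much the higher line in Hoxc6 (6.18 in OG2.1 and 9.77 in OG2.2) and in Hoxc9 (5.74 and 8.41). The reverse pattern, above background on all 4 others and on neither OG2 array, held for 55 genes (0.62%), 16 of them with a bound of at least 2-fold, and all 5 genes that fell are among them. Gdpd3, a phosphodiesterase of phospholipid breakdown, had the fourth bound (at least 9.12-fold) without passing the test: it was at 5.46 and 5.48 in the OG2 lines, against 9.20, 6.33, 9.32 and 10.22. R1 was above background in 3 of the 31 and in 27 of the 55.

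Hox genes, which mark position along the body axis, were above background in more members in OG2.2 than in OG2.1. OG2.1 had 7 and OG2.2 had 20 of the 22 tested members above background, against 1, 2, 1 and 2 in E3, E5, T9 and C1a1 and 6 in R1. The OG2 lines lay above all 4 others in 15 of 22 (68.2%, against 9.33% of all genes) and below in 1, and none was called. That count is no measure of the list, because 18 of the 22 passed the detection filter only through the OG2 lines. The median difference over the 22 was 1.42, or 0.73 with undetected values set at their bound. Of the 2 genes above background in both groups, Hoxc10 lay higher in both OG2 lines (6.08 and 7.50, against 4.91, 4.94, 5.0 and 5.55 in E3, E5, T9 and C1a1) and was chosen after its values were seen, and Hoxa13 overlapped.

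The 3' members Hoxa2 and Hoxb2, genes of the anterior end of the Hox domain, were above background in both OG2 lines. Hoxa2 was at 6.89 in OG2.1 and 7.73 in OG2.2, against 5.39, 4.74, 4.93 and 5.0 in E3, E5, T9 and C1a1 (difference 2.29, SE 0.30, adjusted p = 0.0752). Hoxb2 was at 6.54 and 8.12, against 4.93, 4.74, 5.24 and 5.13 (difference 2.32, SE 0.42, adjusted p = 0.165). In Hoxc6 and Hoxc9 the OG2 lines lay farther apart than in Hoxa2 and Hoxb2: Hoxc6 was at 6.18 and 9.77, and Hoxc9 at 5.74 and 8.41, against values of 4.36 to 5.01 in the others. Over the 22 tested Hox genes the mean level was 5.331 in OG2.1 and 6.944 in OG2.2, against 4.715 to 4.839 in the 4 others. Since 18 of the 22 were kept only through the OG2 lines, this difference is no test.

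**Figure D4:**
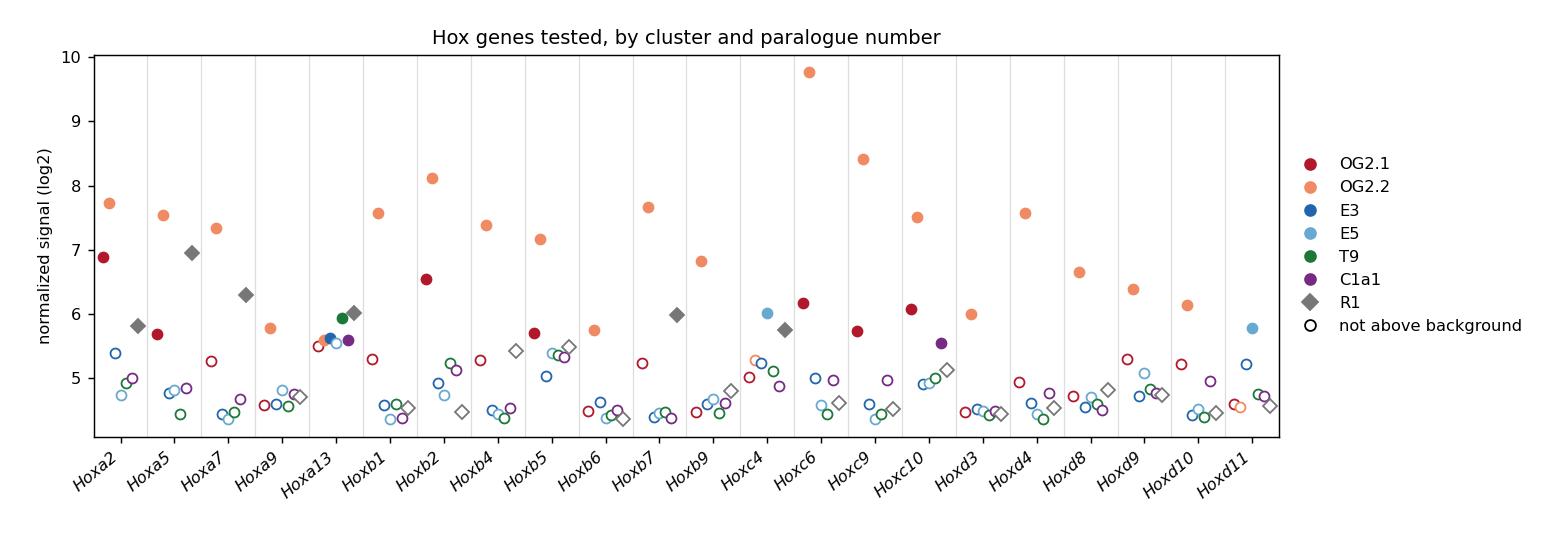
Normalized log2 signal of the 22 Hox genes tested, by gene and cell line; filled points are above background and open points are not. OG2.2 is the highest line in most genes, and OG2.1 stands apart from E3, E5, T9 and C1a1 in Hoxa2 (6.89) and Hoxb2 (6.54).

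Of 13 tested genes of posterior patterning and retinoid response, 1 was called higher (Meis2), 12 differences were positive, and the OG2 lines lay above all 4 others in 5 (38.5%, against 9.33% of all genes). The median was 1.03, against -0.022 over all genes, and none of the 13 had passed detection through the OG2 lines alone. This list, like the others, was chosen with earlier results of these data known, so its share and median are descriptive and no test. Crabp1, a cellular retinoic acid binding protein, was at 7.91 and 8.41 in OG2.1 and OG2.2, against 6.27, 5.75, 6.34 and 6.88 (difference 1.85, adjusted p = 0.165). Crabp2, its paralogue, chosen after its values were seen, was at 8.14 and 8.85, against 6.41, 8.06, 6.28 and 6.63. Meis1 overlapped: it was at 9.19 and 8.06, against 8.57, 5.36, 5.68 and 6.04, with E3 inside the OG2 range.

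Among 20 tested neural genes, 1 was called higher (Npy), 18 differences were positive, and the OG2 lines lay above all 4 others in 6 (30%, against 9.33% of all genes) and below in 2 (10%, near the 10.2% of all genes), with a median of 0.61 (0.38 with undetected values at their bound). Of the 20, 6 had passed detection only through the OG2 lines, and of the 13 above background in both groups, 4 lay above and 2 below. Gbx2, a homeobox gene of the anterior hindbrain that ESCs also express, was at 10.65 and 11.21 in the OG2 lines, against 6.63, 5.90, 7.14 and 9.20 in E3, E5, T9 and C1a1, and R1 was at 11.83 (difference 3.72, SE 0.81, adjusted p = 0.231). Stmn2, a regulator of microtubules in neurons, was at 10.90 and 10.96, against 8.01, 7.85, 9.02 and 9.75 (difference 2.27, adjusted p = 0.259). The forebrain and epiblast gene Otx2 went the other way, at 11.51 and 10.84, against 12.09, 11.75, 11.62 and 11.58. As stated above, Sox1, Pax6 and Tubb3 were below background in all 6 lines.

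A further 3 genes at least 1 unit higher in the OG2 lines were chosen after their values were seen. Nr2f1, a nuclear receptor of neural development, was at 10.97 and 9.04 in the OG2 lines, against 4.87, 4.78, 5.54 and 7.90 in E3, E5, T9 and C1a1 (difference 4.23, adjusted p = 0.231). Nkx6-1, a homeobox gene of the ventral neural tube and pancreas, was at 9.72 and 8.38, against 4.94, 4.55, 5.10 and 7.11 (difference 3.63, adjusted p = 0.192). Ptn, the growth factor pleiotrophin, was at 10.82 and 10.22, against 6.75, 6.91, 7.85 and 8.98 (difference 2.90, adjusted p = 0.209). In each, C1a1 lay between the OG2 lines and E3, E5 and T9.

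In the Notch pathway, where ligands on one cell activate receptors on the next, 9 of 11 tested genes had positive differences, the OG2 lines lay above all 4 others in 5 (45.5%, against 9.33% of all genes), and 0 were called. The median was 0.51. The receptor Notch1 was at 8.33 and 8.39 in the OG2 lines, against 7.90, 7.28, 7.91 and 8.08 in E3, E5, T9 and C1a1, a difference of 0.57, and was chosen after its values were seen. The ligand Dll1 was at 6.76 and 6.48, against 5.45, 6.13, 5.34 and 6.02. Of the target genes, Nrarp was at 9.55 and 9.22, against 8.63, 7.54, 7.85 and 7.90 (difference 1.41), Hey1 at 9.92 and 9.08, against 7.95, 7.97, 7.72 and 8.80 (difference 1.39), and Hes5 at 5.71 and 6.84, against 4.76, 4.70, 4.60 and 5.61 (difference 1.4). Their adjusted p-values were 0.248, 0.313 and 0.372.

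Of 22 tested Wnt genes, 16 differences were positive (median 0.48), with the OG2 lines above all others in 2 and below in 1 and 0 called. Of 18 BMP genes, 15 were positive (median 0.46), with 2 above, 0 below and 0 called. The shares above, 9.09% of the Wnt genes and 11.1% of the BMP genes, were near the 9.33% of all genes. Bmp4, the ligand of posterior epiblast patterning, was at 7.38 and 7.55 in the OG2 lines, against 6.49, 5.08, 5.98 and 6.93 in E3, E5, T9 and C1a1 (difference 1.34, adjusted p = 0.464), and R1 was at 9.01. No tested gene of the primitive streak, of 17, separated the groups in either direction. Of 16 definitive endoderm genes, 1 did, lower in the OG2 lines (6.25%, against 10.2% of all genes).

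Imprinted genes are expressed from 1 parental copy. Of 22 tested, 14 differences were positive, the OG2 lines lay above all 4 others in 5 (22.7%, against 9.33% of all genes) and below in 0, and 0 were called. The median was 0.21. Cdkn1c, a maternally expressed inhibitor of cyclin-dependent kinases, was at 12.78 and 12.19 in OG2.1 and OG2.2, against 9.97, 9.25, 10.36 and 5.13 in E3, E5, T9 and C1a1. C1a1 was not above background, so the 4 others spread widely, and the difference was 3.81 (SE 1.35, adjusted p = 0.464). Nnat, the paternally expressed neuronatin, had the same order, at 10.64 and 9.73, against 8.38, 7.90, 8.58 and 4.51 (difference 2.84, adjusted p = 0.494). Mest, paternally expressed, was at 11.96 and 11.69, against 9.99, 10.29, 10.64 and 11.03 (difference 1.34, adjusted p = 0.261). For the growth factor Igf2 the groups only touched, with OG2.1 at 12.45 and C1a1 at 12.44. Igfbp5, which binds insulin-like growth factors, was at 12.98 and 11.88, against 8.15, 6.83, 9.35 and 11.18 (difference 3.56, SE 1.07, adjusted p = 0.375).

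Of 18 tested mesenchymal genes, 14 differences were positive, the OG2 lines lay above all 4 others in 5 (27.8%, against 9.33% of all genes) and below in 0, and 0 were called (median 0.33). Zeb1, a repressor of E-cadherin, was at 8.69 and 7.51 in the OG2 lines, against 5.33, 5.31, 5.21 and 7.48 in E3, E5, T9 and C1a1. Zeb2, its paralogue, was at 7.76 and 7.60, against 5.13, 5.60, 5.88 and 7.18. In both, C1a1 was next below the OG2 lines. Acta2, smooth muscle actin, was at 10.64 and 9.39, against 8.28, 8.51, 9.11 and 7.92 (difference 1.56, adjusted p = 0.334), and Twist1, a mesodermal factor, had groups that only touched, with OG2.2 at 6.12 and E3 at 6.10. Of 18 epithelial genes, 4 were positive and none separated the groups. Of 10 tested genes of a wider fibroblast list, 9 were above background in each OG2 line, against 5 in E3, 6 in E5, 7 in T9 and 7 in C1a1. Of these 10, 8 differences were positive (median 0.70) and 0 were called. The OG2 lines lay above all 4 others in 1 and below in 1 (10% each, near the 9.33% and 10.2% of all genes). The list's mean level was 7.78 in OG2.1 and 7.24 in OG2.2, against 6.47 to 7.38 in the others, and the part of such cells in the mesenchymal values was not tested.

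Core histone genes, which encode the proteins that DNA is wound on, were described from a list drawn up after the data had been seen. Of 50 histone genes tested, 43 differences were negative, and the OG2 lines lay below all 4 others in 29 (58%, against 10.2% of all genes) and above in 2. None was called. Of the 50, 10 had passed detection only through the other lines. Of the 39 above background in both groups, the OG2 lines lay below in 21. The median over the 50 was -1.38, or -0.88 with undetected values at their bound. Probes of this near-identical multigene family can share targets, so single members are uncertain, and the members are not independent of each other. In the earlier list of variant and replication-type histones, with 11 tested, the median was 0.03. The OG2 lines lay above in 2 and below in 2 (18.2% each, against 9.33% and 10.2% of all genes).

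The families differed. All 11 tested H4 genes, 7 of 10 H2bc genes and 6 of 9 H3c genes lay below in both OG2 lines, against 3 of 11 H2ac genes. Over all genes the share was 10.2%. The counts include genes above background in neither OG2 line, such as H4f16, H3c3 and H2bc3. Median differences, with no bound set for undetected values, were -1.83 for H4, -2.15 for H2bc, -1.40 for H3c and -0.22 for H2ac. H2ac probes were also the brightest, with a median level of 13.71 over the EpiSC lines, against 7.07 for H4 and 7.57 for H2bc. H4c18 was at 6.07 and 5.82 in OG2.1 and OG2.2, against 8.44, 8.54, 9.87 and 7.43 in E3, E5, T9 and C1a1 (difference -2.63, SE 0.58, adjusted p = 0.232). H4f16 was below background in both OG2 lines (4.81 and 5.0), against 7.06, 7.71, 8.24 and 6.17 (at least 3.29-fold lower). H3c1, chosen after its values were seen, was at 8.14 and 7.12, against 10.06, 10.34, 10.81 and 9.15. In each of these genes C1a1 lay next above the OG2 lines and T9 was the highest.

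That order was the usual one. In 26 histone genes below in both OG2 lines by a difference over 1, the median level was 6.34 in OG2.1 and 5.99 in OG2.2, against 8.44 in E3, 8.59 in E5, 9.25 in T9 and 7.45 in C1a1, and 6.67 in R1. C1a1 was the lowest of the 4 others in 25 of the 26, and R1 lay below C1a1 in 23. Low levels of these probes are thus not limited to the OG2 lines. H2aj, a variant histone gene next to H4f16 among the tested genes in RefSeq's gene order, lay the other way. It was at 6.28 and 7.42 in the OG2 lines and below background in the 4 others (4.55, 4.82, 4.46 and 4.61), at least 2.46-fold higher (adjusted p = 0.102).

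**Figure D5:**
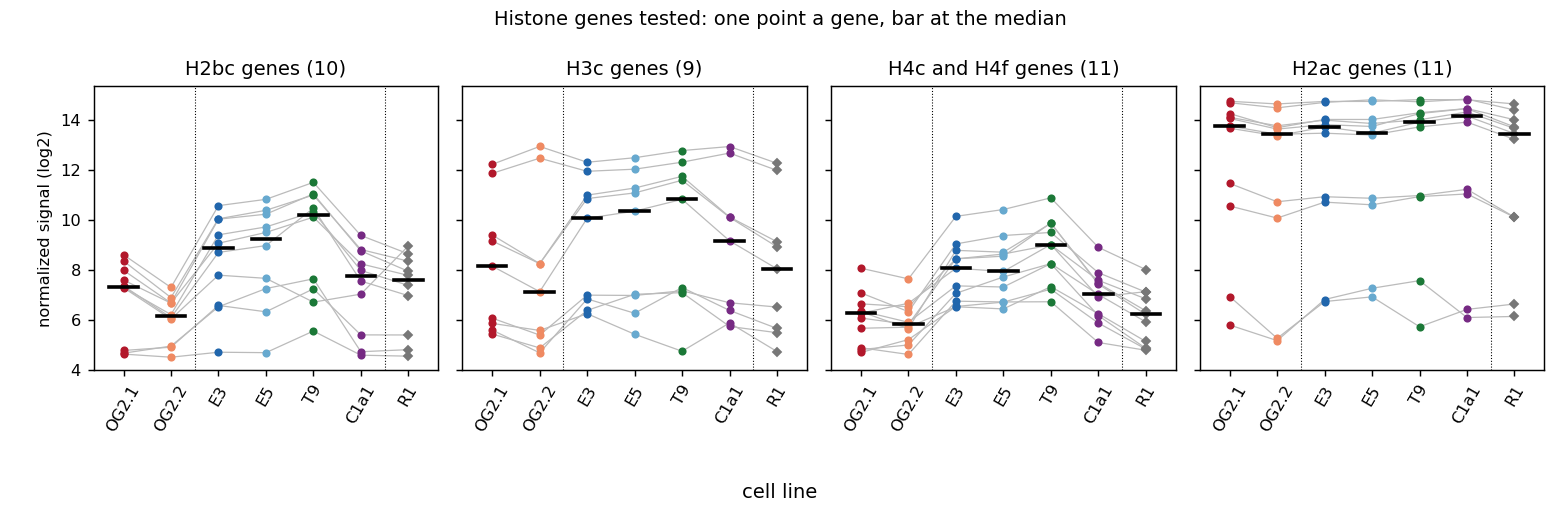
Normalized log2 signal of the tested H2bc, H3c, H4 and H2ac histone genes by cell line; each point is a gene, grey lines join a gene across lines, black bars are medians, and dotted lines set off the OG2 lines at the left and R1 at the right. H4 genes have lower medians in OG2.1 and OG2.2 than in E3, E5, T9 and C1a1, while most H2ac genes lie near 14 in all lines.

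In 3 more lists most differences were negative, with 0 genes called in each. Of 33 tested interferon and antigen presentation genes, 9 differences were positive, and the OG2 lines lay below all 4 others in 5 (15.2%, against 10.2% of all genes) and above in 0. The median was -0.29, or -0.17 with undetected values at their bound. Of the 33, 7 had passed detection only through the other lines, and of the 26 above background in both groups, 3 lay below. Psmb9, a subunit of the immunoproteasome, was at 5.64 and 5.86 in the OG2 lines, against 7.58, 7.23, 6.54 and 8.09 in E3, E5, T9 and C1a1 (difference -1.61, adjusted p = 0.291). The class II gene H2-Ab1 was at 4.84 and 5.69, against 6.78, 10.26, 6.26 and 6.64. In that gene E5 stood 3 units or more above the rest.

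Of 25 tested genes of the integrated stress response, 5 differences were positive, and the OG2 lines lay below in 3 and above in 0 (median -0.35). The share below, 12%, was near the 10.2% of all genes. The 2 members with the largest differences did not separate the groups, because C1a1 was as low: Chac1, which degrades glutathione, was at 7.82 and 8.29 in the OG2 lines, against 10.26, 11.47, 12.28 and 8.17 in E3, E5, T9 and C1a1, and Trib3, a pseudokinase, was below background in both OG2 lines and in C1a1. Of 18 tested cholesterol synthesis genes, 5 were positive and the OG2 lines lay below in 5 (27.8%, against 10.2% of all genes; median -0.14). Msmo1, a sterol oxidase, was at 11.20 and 11.29, against 12.03, 11.60, 11.97 and 11.77 (difference -0.60), and Nsdhl, a sterol dehydrogenase, differed by -0.62.

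Apoptosis genes had 1 call, Casp9, among 22 tested, where 0.0789% of all genes were called. The OG2 lines lay above in 4 (18.2%, against 9.33% of all genes) and below in 4 (18.2%, against 10.2%), with a median of 0.05. Casp8, the initiator caspase of the death receptor pathway, was at 6.60 and 6.78 in the OG2 lines, against 7.77, 7.98, 7.81 and 8.07 in E3, E5, T9 and C1a1 (difference -1.22, SE 0.20, adjusted p = 0.142). The brightest probes of both initiator caspases lay lower in the OG2 lines than in any other EpiSC line, and that of Casp9 alone passed the test. The other kept probes of Casp9 lay higher in the OG2 lines, as given above. Oxidative phosphorylation (40 tested) had 5 above and 5 below, 12.5% each, and glycolysis (20 tested) 2 above and 2 below, 10% each. These shares were near the 9.33% and 10.2% of all genes.

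Of 13 tested core pluripotency genes, 0 were called (median -0.27). The OG2 lines lay above all 4 others in 0 and below in 2 (15.4%, against 10.2% of all genes). Pou5f1 was at 13.55 and 13.32 in the OG2 lines, against 12.69 to 14.12 in the others. Sox2 was at 8.66 and 8.16, against 8.37 to 9.58, and Nanog at 9.49 and 10.20, against 7.53 to 10.98. The OG2 values lay inside the range of the 4 others for Pou5f1 and Nanog. Of 16 tested naive pluripotency genes, the OG2 lines lay above in 1, Gbx2 (6.25%, against 9.33% of all genes), and below in 2 (12.5%, against 10.2%). Klf5 was at 7.75 and 7.72, against 8.74, 8.19, 9.37 and 9.17 (difference -1.13, adjusted p = 0.372). Nr5a2, a nuclear receptor that can drive Pou5f1, was below background in OG2.1, OG2.2, E5 and C1a1 and was at 8.26 in E3 and 9.09 in T9.

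Leaving out C1a1 changed the number of calls most, but the 7 calls did not depend on it. Without E3, E5 or T9, 3 of the 7 stayed called each time. Without C1a1, 30 genes were called, the 7 above and 23 more, 17 of the 30 higher and 13 lower. Each line was left out in turn. C1a1 is taken up here after the results were seen, and so are the genes found only in this way. In many of them C1a1 lay toward the OG2 lines, so leaving it out narrowed the spread of the other group. The adjusted p-values of limma without C1a1 are therefore descriptive only. Among the higher ones were Nr2f1 (difference 4.94 from the mean of E3, E5 and T9, adjusted p = 0.0406), Gbx2 (4.38, 0.0275), Nkx6-1 (4.19, 0.0315), Cdx2 (4.02, 0.0406), Ednrb (3.80, 0.0208), Ptn (3.35, 0.0406) and Wnt5a (2.2, 0.0394). Dbx1, a homeobox gene of the neural tube, was at 6.81 and 6.77 in the OG2 lines, against 4.57, 4.66 and 4.61 in E3, E5 and T9, with C1a1 at 6.07. Of the 13 lower calls among 8871 genes, 6 were among the 50 histone genes tested: H4c3, H4c6, H4c9, H4c11, H1f1 and H1f5. The histone list was drawn up after the data had been seen. Probes of this family can share targets, so the 6 are not independent results. H4c3, H1f1 and H1f5 were not above background in either OG2 line. In H4c3, with 4.88 and 4.62 in the OG2 lines against 6.75, 6.71 and 6.72, C1a1 was at 5.09, close to the OG2 lines. For the 5 genes that fell in the main test, C1a1 lay with E3, E5 and T9.

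The OG2 lines were like each other but not alike. Over the tested genes, whose values are not independent of each other, OG2.1 and OG2.2 had a Pearson's r of 0.965, with 663 genes at least 1 unit apart. Against the 4 others, r ran from 0.938 to 0.954, with 770 to 1216 such genes. E3 and T9, 2 lines with names of different series, had an r of 0.972 and 501 such genes, so the likeness of the OG2 pair was not the closest. The genes with the largest distance between the OG2 lines were Hbb-y, an embryonic globin (8.42 in OG2.1 and 4.47 in OG2.2), Vtn, vitronectin (8.81 and 4.61), Hsd11b2, which inactivates glucocorticoids (9.38 and 5.25), and Nkx2-2, a homeobox gene of the ventral neural tube (8.67 and 4.71). OG2.2 was not above background in any of the 4.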

How the data were processed

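Total RNA of 7 mouse cell lines was read on Illumina bead arrays, 1 array per line, from biotin-labelled cRNA. The deposited signal intensities were bead-summarised by the authors and not normalized, and each comes with a detection p-value in the deposited table. The submitters' processing notes name BeadStudio 3.2, lumi and RMA without order. The authors' deposited log2 values had the same quantiles on every array; their columns have no stated scale or centring and served as an alternative only. Gene symbols came from the platform annotation: 23978 of 25697 probes had 1 symbol, 1719 had none and none had several.

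Signals of all 7 arrays were background-corrected and quantile-normalized with limma 3.58.1 (R 4.3.3; neqc, offset of 16). The 12876 probes that reached a detection p under 0.01 in any of the 6 EpiSC lines were kept, and the probe with the highest mean represented its gene. The 2 OG2 lines were tested against the 4 others with limma's lmFit and eBayes (4 residual degrees of freedom, 2-sided, Benjamini-Hochberg over 8871 genes). The fit was checked on simulated data. The number of arrays limits the precision. Slide and batch were not given in the sources used here. Normalization, background correction, filter, probe rule, variance model and each line were varied in turn. Genes were named by a rule: the largest called changes, the widest gaps, the largest detection bounds, each list's members with the largest differences, a fixed panel, and the largest differences between the OG2 lines. The members and the 42 gene lists were chosen with earlier results of these data known, and the list of core histones was added after the values were seen. Promoter windows and gene order came from RefSeq tables of GRCm38.p6.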

Additional observations from a re-analysis of the deposited data

Results flagged for a closer look

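In 5 of the 67 genes whose differences were examined, 1 of the 4 other EpiSC lines stood far from the other 3, by more than Dixon's critical value for a group of 4; chance gives about 1 in 20 such groups. C1a1 was the line in 4 of them. In Ednrb it was at 6.19 and the nearest of the others at 4.64. In Zeb1 it was at 7.48, with the nearest at 5.33. In Hes5 it was at 5.61, with the nearest at 4.76, and in Nnat it was at 4.51, with the nearest at 7.90. E3, E5 and T9 were not above background in Ednrb, Zeb1 and Hes5, and C1a1 was not in Nnat. The spread of such values reflects background, so these distances are uncertain. E5 stood apart in H2-Ab1, at 10.26, with the nearest at 6.78.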

How the results depend on the processing

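Thumpd1 was called in all 15 other settings tried for single genes and Casp9 in 14 of 15, all but the mean of probes. Thumpd1, like every called gene but Casp9, had 1 probe on the array, so the mean of probes could not change its values. The other 5 called genes passed in 8 or 9 of the 15, and no called gene changed sign. The main test gave 7 calls, 2 higher and 5 lower (28.6% higher), and 51 genes at least 1 unit apart. The authors' deposited log2 values gave 5 calls, 0 higher, and 99 genes apart. Without background correction there were 4 calls, 2 of them lower (50% higher), and 16 genes apart. Median scaling gave 4 higher calls of 9 (44.4%), as did a detection p under 0.05. The mean of probes gave 5 higher of 9 (55.6%), and the trended variance 3 of 9. No detection filter left 2 calls, 0 higher and 2 lower, among 16593 genes tested. Each probe on its own gave 14 calls. Leaving out a line each gave 3 to 30 calls, 0 to 17 higher, 2 to 13 lower, and 59 to 190 genes apart; the 30, with 133 apart, came without C1a1. Without OG2.1 there were 14 calls (85.7% higher) and 170 genes apart, and without OG2.2 there were 4 calls and 190 apart; the lone OG2 line is then assumed to vary like the others. Without E3, E5 or T9 there were 3, 4 and 3 calls. The cause of these changes was not tested. Of 1005 recomputed differences of single genes, 1 turned in sign: Pdxdc1 with the mean of probes (0.606). No paired analysis was possible because the replicate numbers name lines in accession order and pair none. The slide block was not run, since no slide was given in the sources used here. Signal near background limits the 5 lower calls to bounds.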

Other observations

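Of 16 tested p53 pathway genes, the OG2 lines lay above all 4 others in 4 (25%, against 9.33% of all genes) and below in 1 (6.25%, against 10.2%), with 0 called and a median of 0.32. Of 21 hypoxia genes, 17 differences were positive and the OG2 lines lay above in 3 (14.3%, against 9.33% of all genes) and below in 0, with 0 called. Plod2, a collagen-modifying enzyme, was at 9.42 and 9.79 in the OG2 lines, against 8.49, 8.73, 9.04 and 8.80 in E3, E5, T9 and C1a1 (difference 0.84, adjusted p = 0.338). Of 6 tested genes that differ in copy number or expression between mouse strains, 5 were lower in mean and 0 were called. In 2 the OG2 lines lay below all 4 others (33.3%, against 10.2% of all genes). Of the 6, 2 had passed detection only through the other lines, and of the 4 above background in both groups, 1 lay below. Glo1, a glyoxalase, was at 11.37 and 11.07, against 12.44, 12.07, 12.26 and 12.33 (difference -1.06, adjusted p = 0.188).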
